A study of Sus scrofa with 22 samples.

Results

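The foliate papilla tissue of the pig tongue was represented by 5 of the 22 libraries of the study, and these 5 were taken by their titles, which name native tissue and number the pigs 1 to 5. The remaining libraries come from organoids grown from the tongue and were not compared with the tissue here. All 5 tissue libraries form 1 untreated group, each numbered as a separate animal, so pig 1 to pig 5 name animals and have no order. Breed, age and sex are not given in the sources used here. Whole papillae were homogenised with beads, RNA was isolated with a PicoPure kit and no DNase step was included. Poly-A RNA was then sequenced as read pairs. Every cell type in the dissected piece therefore contributed to each library, and in such bulk RNA fewer cells of a type and less RNA per cell cannot be told apart. The labels give the cell type as stem cells and mature taste cells. In the counts, secreted gland products and keratins came first, and the 5 lists of taste cell, taste receptor and progenitor genes took 0.116%, 0.159%, 0.154%, 0.135% and 0.104% of the counts of pigs 1 to 5.

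Foliate papillae are parallel folds at the side of the tongue whose clefts are lined by stratified squamous epithelium and hold taste buds in their walls. Serous von Ebner glands open into the clefts and deliver small carrier proteins and enzymes that rinse the taste pores, while neighbouring mucous glands deliver gel-forming mucins. Below the epithelium lie connective tissue, vessels, nerve bundles, small parasympathetic ganglia and the striated fibres of the tongue muscles. Taste buds hold type I cells, which clear transmitter, type II cells, which detect sweet, umami or bitter substances through the ion channel TRPM5, and type III cells, which respond to acid.

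The tables gave whole-number counts of read pairs for 27376 genes, with library totals from 17036091 to 20714619. Counts are scaled to the library total as CPM, counts per 1e+06 counts, and, for comparison between genes, as CPM per kb of the gene length in the deposited table. A gene with no count in a library could hold up to 3 counts, or 0.145 to 0.176 CPM, and such floors cover counting error only, since read pairs without molecular identifiers are not independent molecules. Between 20256 and 21149 genes had a count in a library, and 15623 genes had a mean of at least 1 CPM. The 10 most abundant genes took from 15.4% of the counts in pig 2 to 36.1% in pig 5. This uneven share lowers the CPM of all other genes in pig 5, and by CPM 44.6% of genes were highest in pig 2, 23.2% in pig 3, 14.4% in pig 4, 11.6% in pig 1 and 6.18% in pig 5. The order of the libraries is therefore also given after scaling by the trimmed mean of M values (TMM), with factors from 0.855 in pig 5 to 1.14 in pig 2. After TMM, 21% of genes were highest in pig 1, 20.8% in pig 2, 20% in pig 3, 14.8% in pig 4 and 23.4% in pig 5, and 19.8%, 20.2%, 20.2%, 16.8% and 23% were lowest there. In particular tissues 3 animals stood apart: pig 1 in some taste and keratin genes and in mucous genes, pig 2 in muscle and neuronal genes, and pig 3 in muscle genes. For many of the lists in which 1 of these pigs is the highest or lowest, sums or counts without it are also given. There was a single group and no contrast, so no test was made, and SDs below describe the spread between 5 animals.

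Gland products had the highest means by CPM and by CPM per kb, but not the highest value in every library. OBP2B, an odorant-binding lipocalin (chromosome 1, 272886871 to 272890537, in the coordinates of the deposited tables, which name no build), had the highest mean CPM, 45937 ± 20521 (SD, n = 5). Its values from pig 1 to pig 5 were 39224, 25799, 31595, 57053 and 76012 CPM. Pigs 4 and 5 were the highest and pig 2 the lowest. LOC100515166, a gene without a symbol that lies between the keratin genes KRT15 and KRT36 on chromosome 12, had 49745, 41649.9, 33516, 32951 and 26494 CPM and exceeded OBP2B and CST3 in pigs 1, 2 and 3. Per kb, CST3, the secreted cysteine protease inhibitor cystatin C on chromosome 17, ranked first with a mean of 89514 CPM per kb, ahead of OBP2B with 61249 and the salivary protein BPIFA2 with 41249. LOC100515166 ranked 4th with 22319 CPM per kb. MSMB, a small secreted protein of glands and prostate, followed with 17583, BPIFB1 with 13192 and KRT4, the type II keratin of the upper layers of wet stratified epithelium, with 10279. Next came 3 mitochondrially encoded genes, ATP6 with 9955, ATP8 with 9442 and COX3 with 9067 CPM per kb. ATP6 overlaps both of the others, and a pair was counted for each gene it overlapped. Their levels are therefore not separate, above all that of ATP8 with its 204 bases. KRT5, the keratin of the basal layer, ranked 18th per kb with 3245. The gel-forming mucin MUC5B ranked 20th by CPM, and its 18263 bases of annotated length placed it 253rd per kb.

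**Figure D1:**
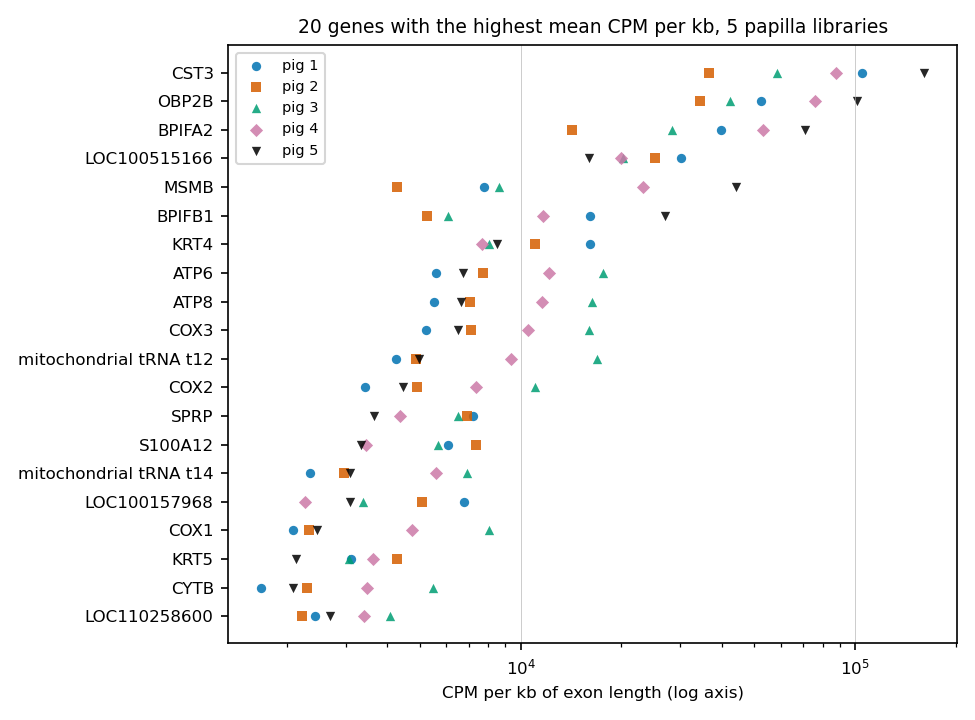
The 20 genes with the highest mean CPM per kb in foliate papilla tissue; each point is 1 pig and the horizontal axis is CPM per kb on a log scale. CST3, OBP2B and BPIFA2 lead with means of 89514, 61249 and 41249 CPM per kb, and the points of pig 5 are the furthest right in these 3 genes.

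Of the 20 most abundant genes by CPM, 16 had a symbol and fell into 4 kinds. OBP2B, CST3, BPIFA2, BPIFB1, DMBT1, MSMB and MUC5B are secreted by glands. KRT4, KRT5, KRT6A and SPRP, a small proline-rich protein of the cornified envelope, belong to stratified epithelium. COX1, COX2, COX3 and ATP6 are encoded by mitochondrial DNA, and EEF1A1 is the elongation factor of translation. The other 4 had no symbol: LOC100515166 lies beside keratin genes on chromosome 12, LOC100737113 lies on the same chromosome between EIF1 and KRT19 with other unnamed genes, LOC100157968 lies next to SPRP on chromosome 4 and LOC100153854 is on an unplaced sequence. EEF1A1 was among the steadiest of them at 4582, 4804, 3971, 4244 and 4391 CPM. MSMB was among the least steady, at 3968, 2167, 4373, 11799 and 22441 CPM, with pig 5 the highest and pig 2 the lowest.

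Genes were grouped into 46 lists by the cell type or process they mark, with 758 of the 862 listed genes that the tables hold at a mean of at least 1 CPM. Gland lists together took 18.8%, 8.72%, 11.1%, 19.1% and 30.6% of the counts of pigs 1 to 5, a mean of 17.7% ± 8.55 (SD, n = 5). Pig 5 was the highest and pig 2 the lowest, 3.51-fold apart. Epithelial lists took 9.68%, 9.29%, 7.34%, 6.31% and 5.73%, a mean of 7.67% ± 1.76, and were highest in pigs 1 and 2. Connective tissue lists took 1.30%, 1.09%, 0.810%, 0.768% and 0.526%, highest in pig 1 and lowest in pig 5. Vessel lists took 0.296%, 0.352%, 0.308%, 0.292% and 0.260% and immune lists 0.261%, 0.395%, 0.317%, 0.265% and 0.259%, and both were highest in pig 2. Nerve lists took 0.0869%, 0.185%, 0.118%, 0.0943% and 0.0862%, again with pig 2 the highest. Muscle lists had the widest range of these groups, 0.325%, 0.170%, 1.80%, 0.509% and 0.549%, which is 10.6-fold between pig 3 and pig 2. Taste lists spanned 1.52-fold, from pig 5 to pig 2. Among single genes, the median range over the 5 pigs was 1.64-fold by CPM and 1.52-fold after TMM. A range of at least 4-fold was reached by 1078 of the 15623 genes by CPM, or 6.9%, and by 956 genes after TMM, or 6.12%.

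**Figure D2:**
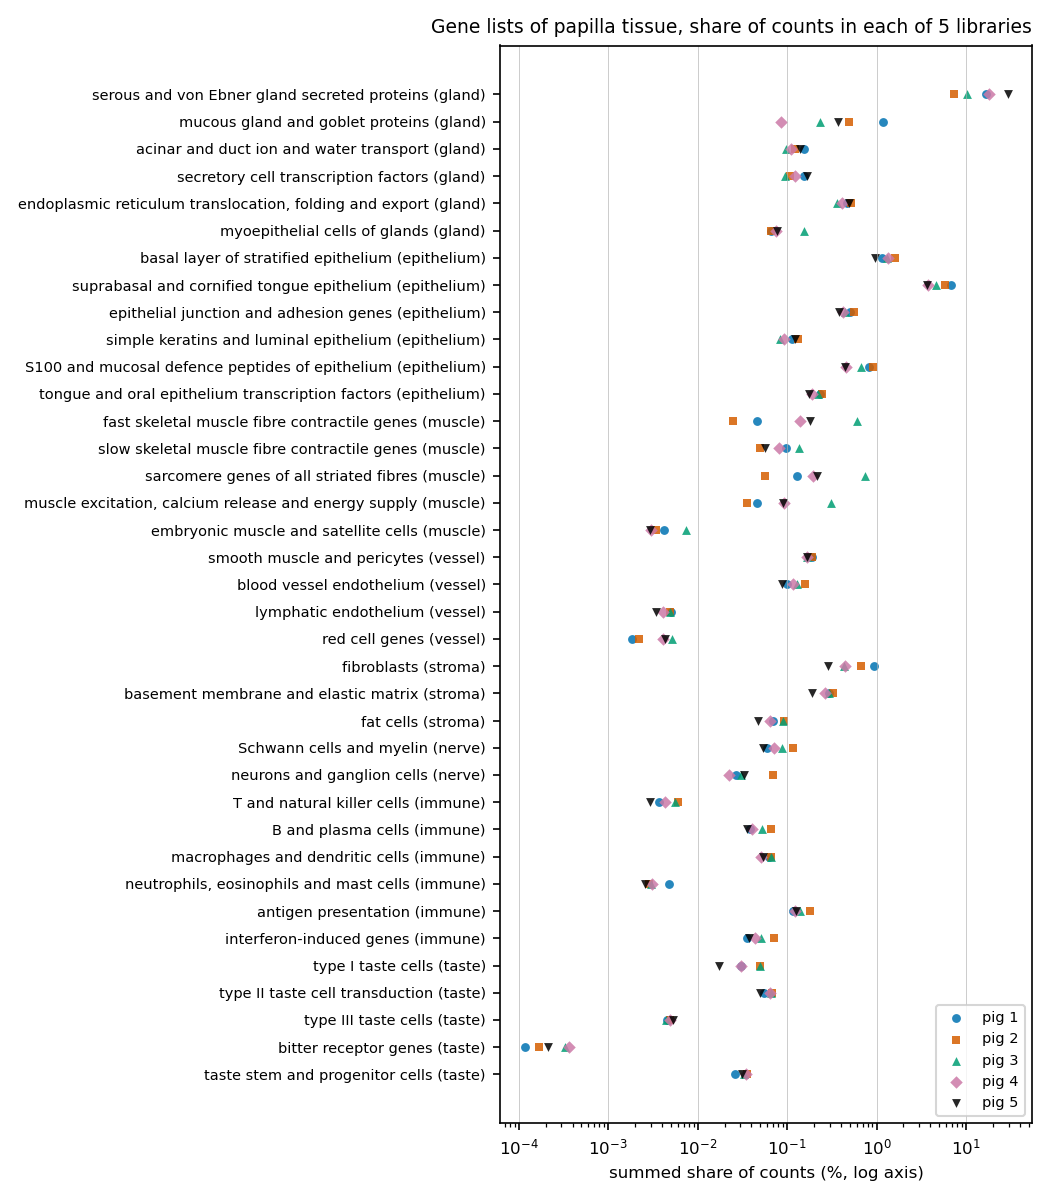
Summed share of all counts, in percent on a log scale, for the gland, epithelium, muscle, vessel, connective tissue, nerve, immune and taste lists of foliate papilla tissue. Each point is 1 of 5 pigs. Serous gland proteins reach 29.3% in pig 5, suprabasal epithelium 6.85% in pig 1, and the fast muscle fibre list spreads from 0.0247% in pig 2 to 0.604% in pig 3.

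Serous secretion dominated the gland share. The list of serous and von Ebner gland proteins took 16.8%, 7.42%, 10.2%, 18.3% and 29.3% of the counts, and 17 of its 20 members at 1 CPM or more had a range of at least 4-fold, against 6.9% of all genes. BPIFA2, a member of the lipid-binding BPI fold family (chromosome 17, 36690008 to 36699989), had 35715, 12814, 25379, 47542 and 63760.5 CPM, a mean of 37042 ± 19678 (SD, n = 5). BPIFB1, a longer member of the same family, had 29899, 9725, 11266, 21628 and 50037 CPM. CST3 had 49284, 17276, 27508, 41199 and 75539.9 CPM. In each of these genes pig 5 was the highest and pig 2 the lowest, and pig 3 came next to pig 2. BPI fold genes are near-identical in places and pairs that map to several sites were not counted, so their levels relative to each other are uncertain.

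Other serous products had the same highest pig. CA6, the secreted carbonic anhydrase of saliva, had 1872, 511, 777, 1316 and 2757 CPM. DMBT1, a scavenger receptor protein that binds bacteria, had 6046, 5349, 4466, 11336 and 17718 CPM, with pig 3 the lowest. BPIFA1, a surfactant-like protein of airways and mouth, had 2261, 656, 255, 1263 and 4971 CPM and a 19.5-fold range. AMY2B, an amylase, stayed between 4.24 CPM in pig 2 and 26.1 CPM in pig 5. PIP, a small protein of exocrine secretions, spanned 46.1-fold, from 0.568 CPM in pig 2 to 26.2 CPM in pig 5. After TMM, 12 of the 20 serous genes were highest in pig 5, against 23.4% of all genes. In pig 2 8 were lowest and in pig 3 7, against 20.2% of all genes in each. Without pig 2 the serous sum spanned 3.58-fold in place of 5.26-fold after TMM, with pig 3 the lowest. The ratio of BPIFA2 to OBP2B per kb was 0.760, 0.415, 0.671, 0.696 and 0.701, a 1.83-fold range with pig 2 the lowest.

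Several antimicrobial members of the serous list followed pig 1 in place of pig 5. LYZ, lysozyme, had 276, 22, 12.1, 11 and 21.2 CPM, more than 4-fold higher in pig 1 than in each other pig. LPO, the salivary peroxidase, had 261, 98.5, 84.7, 28.8 and 134 CPM. BPIFB2 had 1056, 357, 132, 34.8 and 343 CPM, and PIGR, the receptor that carries immunoglobulin A into secretions, had 663, 309.9, 50.4, 116 and 527 CPM. In these genes pig 1 was the highest, while pig 4, which had the second highest levels of OBP2B and BPIFA2, was the lowest in LYZ, LPO and BPIFB2. SLPI, a protease inhibitor of secretions, ran against both, at 24.2, 51.3, 69.4, 56.2 and 13.9 CPM, with the highest value in pig 3 and the lowest in pig 5.

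Mucous gland genes formed a second pattern within the glands. The mucous list took 1.19%, 0.491%, 0.231%, 0.0855% and 0.367% of the counts, a 13.9-fold range between pig 1 and pig 4. MUC5B (chromosome 2, 807685 to 842096) had 9119, 3797, 1894, 542 and 2459.6 CPM. Pig 1 was the highest, and pig 4 the lowest although it was second in OBP2B. CLCA1, a secreted goblet cell protein, had 807, 239.6, 57.1, 20.1 and 337 CPM, and FCGBP, a mucin-associated protein, had 847, 299.9, 95, 122 and 246 CPM. The trefoil peptide TFF3 had 428, 204, 84.6, 36.1 and 167 CPM and TFF2 had 78.0, 29.8, 12.3, 1.94 and 21 CPM, while TFF1 had no count in any library. AGR2, a disulfide isomerase needed for mucin folding, had 274, 179, 54.9, 51.2 and 193 CPM. Of the 11 members at 1 CPM or more, 10 were highest in pig 1 after TMM, against 21% of all genes, and 8 were lowest in pig 4, against 16.8%. C1GALT1C1, a chaperone of O-glycosylation found in many tissues, was the exception, at 17.9, 14.4, 12.9, 13.1 and 19.5 CPM. Without pig 1 the list spanned 5.18-fold after TMM, with pig 2 the highest in sum, pig 4 the lowest, and 9 of the members highest in pig 5, against 30.8% of all genes. The ratio of MUC5B to OBP2B per kb was 0.00955, 0.00604, 0.00246, 0.000390 and 0.00133, a range of 24.5-fold. The plot of gland genes by pig shows the 2 orders side by side.

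**Figure D3:**
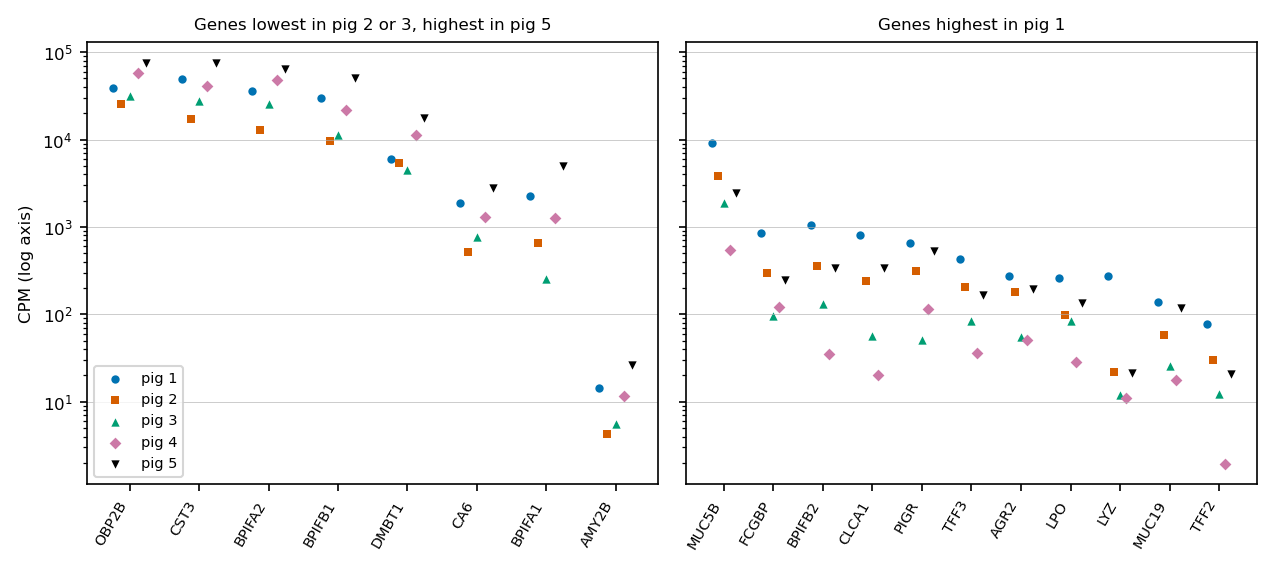
CPM of gland genes by pig on log axes; each point is 1 pig, the left panel holds 8 serous products and the right panel 11 genes that were highest in pig 1 (mucous genes and the antimicrobial BPIFB2, PIGR, LPO and LYZ). On the left pig 5 is the highest (OBP2B 76012 CPM), and on the right pig 1 is the highest (MUC5B 9119 CPM) and pig 4 the lowest for MUC5B at 542 CPM.

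The regulators and machinery of secretion had narrower ranges than the products: the median member range after TMM was 2.40-fold for the regulators, 1.98-fold for ion and water transport and 1.76-fold for the secretory machinery, against 6.73-fold for serous and 9.13-fold for mucous products. BHLHA15, the factor that sets up the granules of serous acinar cells, had 256, 136, 136, 258 and 406 CPM, and was highest in pig 5 and lowest in pigs 2 and 3. Its exons overlap another gene, so its level is uncertain. By CPM the regulators summed highest in pig 5 with it and in pig 1 without it, spanning 1.79-fold and 1.62-fold. CREB3L1 had 156, 65.9, 51.1, 95.6 and 242 CPM and XBP1, the factor of the unfolded protein response in secretory cells, had 299, 207, 159, 208 and 323 CPM. SPDEF, a factor of mucous cells, had 201, 134, 94.3, 155 and 179 CPM, highest in pig 1 and lowest in pig 3. FOXA1 had 17.4, 8.78, 5.36, 3.52 and 12.3 CPM, with the highest value in pig 1 and the lowest in pig 4, the order of the mucous genes. AQP5, the apical water channel of acinar cells, had 237, 81.5, 61.5, 132 and 264 CPM. ANO1, the calcium-activated chloride channel of acini, had 185, 106, 106, 83.5 and 101 CPM, whereas the duct chloride channel CFTR was low, at 2.86, 3.56, 5.21, 10.2 and 13.3 CPM. Among the 30 genes of translocation, folding and export in the endoplasmic reticulum, 22 were highest in pig 5 after TMM, against 23.4% of all genes. Of these 30 genes, 21 were lowest in pig 3, against 20.2%. Without pig 3 their sum spanned 1.41-fold in place of 1.67-fold after TMM. By CPM the sum of this list ran only from 0.362% to 0.512% of the counts, with pig 2 the highest. Of its members, 6 were highest in pig 2 even after TMM. These included CRELD2 at 77.1, 222, 98.6, 163 and 127 CPM and HSPA5, the main chaperone of the compartment, at 302, 451, 238, 322 and 324 CPM.

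Single basal genes were about as even across the animals as all genes. Their median range after TMM was 1.51-fold, against 1.52-fold. KRT5 (chromosome 5, 17862047 to 17868397) had 7196, 9896, 7087, 8367 and 4931 CPM, highest in pig 2 and lowest in pig 5, a mean of 7495 ± 1827 (SD, n = 5). KRT15, a keratin of basal and progenitor cells, had 1347, 1800.0, 2398, 1649 and 1603 CPM, and the basal factor TP63 had 68.9, 105, 107, 106 and 81.7 CPM. COL17A1, a collagen of the hemidesmosome, had 639, 937, 756, 800.3 and 838 CPM. The 16 basal genes together spanned 1.70-fold by CPM and 1.28-fold after TMM, and none of the pigs held more than 5 of their highest values. The factors of oral and tongue epithelium spanned 1.33-fold in sum after TMM. Among them were PITX1 at 1110.5, 958, 857, 698 and 706 CPM, PAX9 at 211, 144, 152, 139 and 168 CPM and SOX2, which is also needed for taste buds, at 62.0, 68.5, 63.0, 51.2 and 54.6 CPM. SIM2 and NKX2-3 stayed within 1.24-fold and 1.20-fold by CPM.

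Suprabasal genes were highest in pig 1 and low in pigs 4 and 5. The list took 6.85%, 5.83%, 4.60%, 3.79% and 3.66% of the counts, and 20 of its 31 genes were highest in pig 1 after TMM, against 21% of all genes. KRT4 had 35435, 24195, 17628, 16818 and 18681 CPM. KRT78, a keratin of the uppermost layers, had 3083, 1565, 1025, 366 and 858 CPM and CRNN, cornulin of the oral cornified layer, had 2389.9, 1966, 1272, 792 and 987 CPM. PPL, periplakin of the cell envelope, had 2206, 1832, 1256, 754 and 829.9 CPM. LOR, loricrin, had 2511, 494, 1341, 1436 and 1241 CPM, and pig 2 alone was low. The S100 proteins and defence peptides of the epithelium had 0.813%, 0.905%, 0.669%, 0.460% and 0.440% of the counts, with S100A9 at 2063, 2335, 1776, 779 and 809 CPM and S100A12 at 2204, 2656, 2048, 1252 and 1207 CPM, and after TMM 10 of 13 were highest in pig 1, whereas by CPM their sum was highest in pig 2. Without pig 1, pig 2 held 17 of 31 suprabasal and 11 of 13 defence genes as the highest, against 28% of all genes, and the sums spanned 1.39-fold and 1.78-fold. S100 and keratin genes have close copies, so the counts of single members are uncertain.

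The keratins of skin and of keratinised papillae did not follow this order. KRT1 and KRT10, the pair of cornifying epidermis, had their highest value in pig 4. KRT1 had 14.1, 38.8, 61.3, 287 and 57.3 CPM and KRT10 had 39.7, 71.4, 56.5, 197 and 50.3 CPM. KRT3 had 60.9, 242, 1074, 1227 and 343 CPM, with pigs 3 and 4 high and pig 1 low. KRT6A, a keratin of filiform papillae and of wounded epithelium, had 3201, 7796, 5944, 3846 and 2656 CPM, with pigs 2 and 3 high. RPTN, repetin, a cornified envelope protein of filiform papillae, had 0.794, 20.5, 32.1, 69.0 and 25.1 CPM. Pig 1 was lowest in KRT1, KRT10, KRT3 and RPTN, although it was highest in KRT4, KRT78 and CRNN.

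A further set of genes was low in pig 1 alone. After TMM, 49 genes, or 0.314% of all genes, were at least 4-fold lower in pig 1 than in each of the 4 other pigs, and 48 of these also met that limit by CPM. This comparison was added after the data had been seen. KRT24, a type I keratin (chromosome 12, 21731170 to 21737515), had 19.7, 1003, 389, 813 and 489.5 CPM. Its exons overlap LOC106505430, which had 4.87, 209.8, 64.0, 143 and 105 CPM, and reads of the 2 cannot be told apart. LOC100525745 (chromosome 5, 17749493 to 17760620), a gene without a symbol between KRT82 and KRT6A in the type II keratin cluster, had 2.12, 188, 211, 101 and 83.5 CPM. LOC100737113, which lies between EIF1 and KRT19, had 188, 4443, 8134, 3506 and 1994 CPM and so was among the 20 most abundant genes in spite of its level in pig 1. Kallikrein proteases of shedding epithelium were 4 of the 49, with KLK5 at 0.318, 10.6, 19.8, 13.6 and 5.79, KLK6 at 1.96, 22.3, 45.6, 17.8 and 8.94, KLK7 at 2.65, 50.7, 95.8, 42.1 and 23.2 and KLK8 at 0.794, 10.4, 15.3, 10.2 and 4.60 CPM. DMKN, dermokine of differentiating keratinocytes, had 7.78, 82.2, 96.9, 134 and 41.2 CPM and the desmosomal cadherin DSC1 had 1.16, 6.97, 12.3, 9.98 and 5.42 CPM. CYP26A1, which breaks down retinoic acid, had no count in pig 1 and 11.6, 27.0, 11.2 and 4.8 CPM in pigs 2 to 5, and NOTUM, a secreted Wnt inhibitor, had 0.688, 19.9, 27.0, 16.6 and 7.08 CPM. Of the 49 genes, 9 stood on any list, against 758 of all 15623 genes. Of these 9, 6 stood on the taste lists and 1 on an epithelium list. Among all 15623 genes the type I, type II, type III, bitter and progenitor lists held 3, 20, 8, 0 and 15. No symbol was given for 19 of the 49. The ratio of KRT24 to KRT5 per kb was 0.00178, 0.0657, 0.0356, 0.0630 and 0.0644. In the other direction 5 genes, or 0.032%, were at least 4-fold higher in pig 1, among them LYZ, SCGB1D1, a secretoglobin, at 119, 6.09, 9.37, 6.99 and 8.42 CPM, and STATH, statherin of saliva, at 18.2, 0.413, 0.290, 3.58 and 1.55 CPM.

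Striated muscle was the most variable tissue. All 11 of 11 genes of fast fibres were highest in pig 3 after TMM, against 20% of all genes, and all 11 were lowest in pig 2, against 20.2%. MYH2, the myosin heavy chain of fast type IIa fibres (chromosome 12, 55252974 to 55278820), had 131, 37.0, 1164, 289.5 and 576 CPM, a mean of 439 ± 453 (SD, n = 5). Pig 3 stood 31.4-fold above pig 2. MYH1, the myosin of type IIx fibres, had 5.98, 2.32, 112, 50.9 and 35.4 CPM and MYH4, the myosin of type IIb fibres, stayed at or below 1.98 CPM. The fast troponins followed, with TNNT3 at 80.2, 59.8, 1208, 245 and 261 CPM and TNNC2 at 29.5, 25.7, 609, 123 and 127 CPM. The shared sarcomere genes gave the same extremes in 21 of 21 genes for pig 3 and 21 of 21 for pig 2. ACTA1, skeletal actin, had 340.1, 90, 2630.3, 596 and 702 CPM, TTN, titin, 122, 23.1, 689, 203 and 229 CPM and DES, desmin, 109, 28.1, 548, 139.5 and 172 CPM. CKM, the muscle creatine kinase, had 122, 31.4, 1293, 322 and 309.7 CPM. After TMM the fast fibre list spanned 26.2-fold, 9.75-fold without pig 3 and 11.5-fold without pig 2. Without pig 3, 9 of the 11 were highest in pig 5, against 28.4% of all genes. The sarcomere list spanned 14.1-fold, 5.14-fold without pig 3 and 5.06-fold without pig 2.

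Slow fibre genes had the same extremes as fast ones but in other proportions. Of 12 slow fibre genes, 10 were highest in pig 3 after TMM, against 20% of all genes, and 9 lowest in pig 2, against 20.2%. The sum spanned 2.89-fold, but the median range of single members was 32.5-fold, against 25.8-fold for the fast list. Without pig 3 the sum spanned 2.39-fold and 8 of the genes were highest in pig 1, against 23.8% of all genes. Without pig 2 the sum spanned 1.89-fold. MYH7, the slow myosin heavy chain (chromosome 7, 75650841 to 75672908), had 228, 5.06, 166, 67.7 and 62.6 CPM, and was the 1 member that was highest in pig 1. TNNT1, slow troponin T, had 77.8, 3.56, 123, 61.2 and 28.4 CPM, TNNC1 had 44.4, 2.58, 99.8, 51.0 and 18.8 CPM and MYL3 had 19.2, 0.620, 36.1, 17.3 and 5.37 CPM, each lowest in pig 2 and highest in pig 3. The ratio of MYH7 to MYH2 per kb was 2.10, 0.165, 0.172, 0.282 and 0.131. Pig 1 was the highest in this ratio, and 2.10 means that slow exceeded fast myosin there per kb. The troponin T pair gave 1.57, 0.0967, 0.165, 0.406 and 0.176, the troponin C pair 1.46, 0.0974, 0.159, 0.400 and 0.144 and the troponin I pair 0.587, 0.0528, 0.0655, 0.146 and 0.0552, all with pig 1 the highest. MYH7B, ATP2A2, CASQ2 and TPM3, which are on the slow list, ranged no more than 2.66-fold. ATP2A2 and TPM3 are also expressed outside skeletal muscle.

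Genes at least 4-fold lower in pig 2 than in each other pig numbered 70 after TMM, or 0.448% of all genes, and 46 by CPM. Of the 70, 24 stood on any list, against 758 of all 15623 genes, and 23 of these stood on the muscle lists. Among all 15623 genes the fast fibre, slow fibre, sarcomere, excitation and energy, and embryonic and satellite cell lists held 11, 12, 21, 21 and 8. Regulators of muscle lineage were scarce: MYF6 had 3.86, 1.24, 18.8, 4.99 and 3.36 CPM, MYOG 2.22, 0.207, 5.12, 1.88 and 1.19 CPM and PAX7, the marker of satellite cells, 1.69, 0.878, 2.08, 0.822 and 0.827 CPM. Mitochondrial RNA moved with muscle in its highest animal, since the 13 mitochondrially encoded genes took 2.09%, 2.81%, 6.90%, 4.48% and 2.55% of the counts and all 13 were highest in pig 3. Without pig 3, all 13 were highest in pig 4, against 20.9% of all genes, and their sum spanned 1.97-fold in place of 2.92-fold after TMM. It did not follow muscle in pig 4, which was second in mitochondrial RNA and had 0.138% of its counts in fast fibre genes against 0.181% in pig 5. All 13 of 13 nuclear genes of oxidative phosphorylation were highest in pig 3, with NDUFA4 at 53.9, 56.0, 128, 68.3 and 60.3 CPM. Without pig 3, 9 were highest in pig 5, against 28.4% of all genes, and their sum spanned 1.09-fold in place of 1.44-fold. The part of muscle in these mitochondrial levels was not tested.

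**Figure D4:**
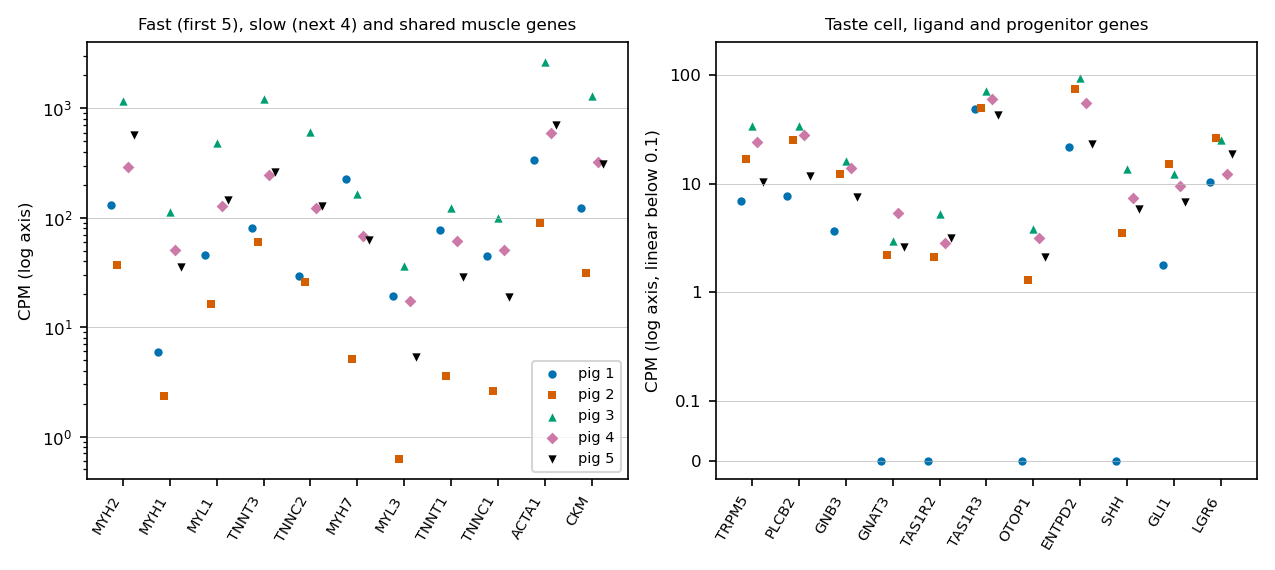
CPM of muscle genes (left) and taste genes (right) by pig on log axes. The left panel peaks in pig 3 (MYH2 1164 CPM) and dips in pig 2 (MYH2 37.0 CPM), with the slow gene MYH7 highest in pig 1 at 228 CPM; in the right panel pig 1 is the lowest for TRPM5 at 6.99 CPM and has no count for GNAT3, TAS1R2, OTOP1 and SHH.

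Smooth muscle did not share the range of striated muscle. Its list took 0.190%, 0.188%, 0.169%, 0.169% and 0.165% of the counts. MYH11, the smooth muscle myosin, had 523, 432, 395, 425 and 492 CPM and ACTA2, smooth muscle actin, had 488, 398, 307, 408 and 430.2 CPM. The ratio of skeletal ACTA1 to smooth ACTA2 per kb was 0.519, 0.168, 6.37, 1.09 and 1.21, a 37.8-fold range. Of the 6 myoepithelial genes of the glands, TPM2 had the widest range, at 260.5, 209, 1184, 393 and 374 CPM, a tropomyosin that skeletal muscle also makes.

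Endothelial genes had a median member range of 1.57-fold after TMM, near the 1.52-fold of all genes. PECAM1 had 93.5, 124, 99.3, 93.1 and 77.1 CPM, a 1.21-fold range after TMM. VWF, the clotting factor stored in endothelium, had 140.4, 293, 157, 125 and 122 CPM, highest in pig 2. The blood vessel list spanned 1.80-fold by CPM and 1.35-fold after TMM, and 14 of its 28 genes were highest in pig 2, against 20.8% of all genes. Without pig 2, 12 were highest in pig 3, against 27.5%, and the sum spanned 1.19-fold. SELE, the adhesion molecule of activated endothelium, was the widest member, at 1.16, 16.2, 2.85, 2.99 and 2.22 CPM, and 1 of 3 genes, or 0.0192%, that were at least 4-fold higher in pig 2 than in each other pig. PROX1, the lymphatic factor, was low and even, at 2.06, 2.84, 3.09, 2.82 and 2.38 CPM. Haemoglobin RNA of blood was low, with HBB at 14.1, 16.2, 45.7, 35.5 and 38.2 CPM.

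Fibroblast genes were highest in pig 1 and lowest in pig 5. COL1A1 had 1835, 1241, 621, 622 and 407 CPM and COL3A1 had 2342, 1430.3, 709, 888 and 520.3 CPM. DCN, decorin, had 412, 361, 276, 263 and 173 CPM, a narrower range. Of 27 fibroblast genes, 19 were highest in pig 1 and 23 lowest in pig 5 after TMM, against 21% and 23% of all genes. Without pig 1, 17 were highest in pig 2, against 28%, and the sum spanned 1.76-fold in place of 2.96-fold. FN1, fibronectin, had 351, 309, 127, 117 and 73.1 CPM and ELN, elastin, had 368, 229, 191, 133 and 102 CPM, in the same order of extremes. POSTN, periostin, went against it, at 91.2, 91.7, 66.8, 67.7 and 119.6 CPM with the highest value in pig 5. Fat cells were nearly absent by their defining genes: ADIPOQ, adiponectin, had 0.9, 0.103, 1.45, 0.352 and 0.0517 CPM and PLIN1 had 1.27, 0.413, 1.88, 0.293 and 0.103 CPM. FASN, which epithelia and glands also express, was abundant at 361, 536, 424, 336 and 234 CPM.

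Most glial genes were highest in pig 2, but SOX10 was not. SOX10, a factor of Schwann cells that salivary gland cells also express, had 101, 99.8, 90.3, 136 and 122 CPM, a mean of 109.8 ± 18.7 (SD, n = 5). By CPM its highest pig was pig 4, and after TMM pig 5. S100B, a calcium-binding protein of glia, had 24.1, 53.9, 45.4, 28.2 and 21.4 CPM, with pig 2 the highest and pig 5 the lowest. After TMM 17 of 21 Schwann cell genes were highest in pig 2, against 20.8% of all genes, and without pig 2, 17 were highest in pig 3, against 27.5%. The 4 others were SOX10 and ITGB8, highest in pig 5, and EGR2 and ARTN, highest in pig 3.

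Neuronal genes separated pig 2 from the other animals. UCHL1 had 27.2, 69.2, 29.5, 17.5 and 27.8 CPM, and PRPH, peripherin, a neurofilament protein of peripheral neurons, had 24.1, 59.5, 21, 13.9 and 24.3 CPM. The parasympathetic markers had the same highest animal, with NOS1, which makes nitric oxide, at 15.9, 44.6, 14.8, 12.6 and 17.7 CPM, the peptide VIP at 11.5, 56.9, 18.6, 19.7 and 35.4 CPM and the vesicular acetylcholine transporter SLC18A3 at 12.5, 29.0, 8.88, 6.75 and 10.1 CPM. GAL, galanin, had 1.85, 27.0, 13.9, 11.2 and 20.6 CPM, with pig 1 at least 4-fold below the rest. DBH, an enzyme of noradrenergic neurons, had 4.02, 10.5, 4.92, 3.52 and 4.18 CPM, also highest in pig 2. Of 31 neuronal genes, 28 were highest in pig 2 after TMM, against 20.8% of all genes, and 16 were lowest in pig 4, against 16.8%. The sum spanned 2.76-fold. Without pig 2 it spanned 1.73-fold, with 18 of the members highest in pig 5, against 26.4% of all genes. After TMM the members highest elsewhere were NEFM in pig 1, GATA2 in pig 3 and GAL in pig 5.

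Immune lists took small shares in all animals. Myeloid genes included C1QC at 61.0, 34.4, 31.2, 39.3 and 43.0 CPM and C1QA at 39.6, 19.2, 19.9, 25.7 and 28.7 CPM, subunits of the complement component of tissue macrophages, highest in pig 1. CD74, the chaperone of class II antigen presentation, had 349, 444, 449, 301 and 351 CPM. JCHAIN, the joining chain of secreted immunoglobulin A, had 88.3, 77.3, 34.1, 49.2 and 72.8 CPM, while the T cell gene CD3E stayed at 2.17, 4.08, 4.30, 3.52 and 0.775 CPM. B cell genes separated pigs 2 and 3 from the others: CD79B had 1.38, 10.2, 10.5, 3.76 and 1.76 CPM and PAX5 0.847, 5.68, 6.42, 1.64 and 0.930 CPM. CXCL13, the chemokine that draws B cells into follicles, had 1.80, 25.2, 15.5, 4.81 and 1.76 CPM and LTB, lymphotoxin beta, 3.49, 16.3, 11.9, 4.23 and 3.31 CPM, both highest in pig 2 and then pig 3. Of 21 B and plasma cell genes 8 were highest in pig 2 after TMM, against 20.8% of all genes, and 9 in pig 3, against 20%. Without pig 2, 14 were highest in pig 3, against 27.5%, and without pig 3, 16 were highest in pig 2, against 26.9%. Plasma cell genes did not share this order, since JCHAIN was highest in pig 1 and MZB1, at 6.88, 7.64, 6.71, 7.22 and 9.20 CPM, in pig 5. CPA3, a mast cell protease, had a single count, in pig 3, while MS4A2, a subunit of the mast cell receptor for immunoglobulin E, had 5.61, 1.5, 2.7, 1.88 and 0.982 CPM. The exons of MS4A2 overlap another gene, so its counts may not all be its own.

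Interferon-induced genes were highest in pig 2 and lowest in pig 1. ISG15 had 10.5, 45.6, 30.2, 16.2 and 17.7 CPM, MX1 13.8, 48.0, 25.2, 14.1 and 16.8 CPM and OAS1 4.34, 27.8, 9.41, 12.0 and 5.11 CPM. OAS2 was highest in pig 4, at 17.6, 54.0, 29.2, 70.6 and 18.3 CPM. Of 30 genes, 20 were highest in pig 2 after TMM, against 20.8% of all genes, and 22 lowest in pig 1, against 19.8%. The sum of the list after TMM spanned 1.65-fold, 1.26-fold without pig 2 and 1.47-fold without pig 1. STAT2, a transcription factor of this pathway, had 51.6, 62.0, 54.4, 48.0 and 41.0 CPM, a 1.51-fold range.

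Taste cell genes were rare in the tissue, and pig 1 was the lowest in TRPM5, PLCB2, GNB3, GNAT3, TAS1R2 and POU2F3. TRPM5, the channel of type II cells (chromosome 2, 1646597 to 1664935), had 6.99, 16.9, 33.7, 24.3 and 10.4 CPM, a mean of 18.5 ± 10.8 (SD, n = 5). Pig 3 was the highest, followed by pig 4. PLCB2, the phospholipase of the same cascade, had 7.62, 25.4, 33.9, 28.1 and 11.9 CPM and GNB3, its G protein subunit, had 3.65, 12.3, 16.0, 14.1 and 7.59 CPM. GNAT3, gustducin, had 0, 2.22, 2.94, 5.34 and 2.63 CPM and TAS1R2, the sweet receptor subunit, had 0, 2.12, 5.21, 2.82 and 3.15 CPM. With the floor of 3 counts set in pig 1 and after TMM, the lowest of the other pigs stood at least 11.6-fold higher in GNAT3 and at least 11-fold higher in TAS1R2. TAS1R1, the umami subunit, had 1.64, 1.19, 1.74, 2.58 and 0.672 CPM. TAS1R3, the shared subunit, had 49.3, 49.7, 71.4, 60.3 and 42.9 CPM with pig 5 the lowest, but its exons overlap those of DVL1 and the strand was ignored, so reads of the 2 genes cannot be told apart. POU2F3, the factor that specifies type II cells, had 1.59, 2.38, 3.04, 5.40 and 2.07 CPM.

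Other members of the type II list are expressed in many epithelia. ITPR3 had 164, 243, 216, 214 and 144 CPM, TRPM4 88.2, 89.7, 74.8, 69.3 and 62.5 CPM and AVIL 144, 150.4, 145, 139 and 120.2 CPM, and pig 1 was not the lowest in any of them. ADCY8, an adenylyl cyclase, had 62.3, 35.3, 24.4, 44.3 and 64.6 CPM, with pig 5 the highest. The sum of the list, 0.0552%, 0.0682%, 0.0668%, 0.0649% and 0.0500% of the counts, spanned 1.08-fold after TMM while TRPM5 spanned 4.27-fold. None of the 11 bitter receptor genes held by the tables reached a mean of 1 CPM. TAS2R1 had 0, 0.207, 0.772, 1.12 and 0.362 CPM and TAS2R41 0.582, 0.723, 0.628, 0.528 and 0.103 CPM, the highest by mean. Of type III cells, the acid-sensing channel OTOP1 had 0, 1.29, 3.81, 3.17 and 2.12 CPM and PKD2L1 had 0, 1.29, 1.16, 0.528 and 0.517 CPM, while TPH1, the first enzyme of serotonin synthesis in endocrine cells, was at or near 0 in all 5. ENTPD2, the ectonucleotidase of type I cells, had 21.8, 74.8, 93.5, 55.3 and 23.4 CPM, with pig 3 the highest and pigs 1 and 5 the lowest. It is also made by Schwann cells and fibroblasts.

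Signals that maintain taste buds were low in pig 1 as well. SHH, the hedgehog ligand secreted by the precursors inside the bud, had 0, 3.51, 13.6, 7.40 and 5.89 CPM, and after TMM its lowest value among pigs 2 to 5 was at least 18.3-fold higher than in pig 1. GLI1, a target of that signal, had 1.80, 15.3, 12.4, 9.57 and 6.77 CPM, with its exons overlapping those of ARHGAP9. PTCH1, its receptor and another target, had 12.3, 23.4, 18.3, 16.9 and 13.9 CPM, a 1.57-fold range after TMM. LGR6, a receptor of stem cells of the taste epithelium, had 10.4, 26.2, 25.1, 12.3 and 18.8 CPM, and LGR5 had 0.529, 2.53, 0.821, 0.998 and 1.08 CPM. LGR4, the widely expressed relative, had 24.5, 20.1, 18.6, 21.7 and 24.5 CPM. After TMM 9 of the 15 progenitor genes and 10 of the 20 type II genes were lowest in pig 1, against 19.8% of all genes. Without pig 1 the sums of the 2 lists spanned 1.18-fold and 1.08-fold. In the 4 pigs other than pig 1, TRPM5, PLCB2 and GNB3 had the same order, with pig 3 first, then pig 4, pig 2 and pig 5. Other type II genes had other orders. GNAT3, POU2F3 and TAS1R1 were highest in pig 4, and TAS1R2 was highest in pig 3, then pig 5, with pig 2 last.

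TRPM5, PLCB2, GNB3, GNAT3, TAS1R2, POU2F3, the 4 kallikreins and KRT24 were lowest in pig 1. By CPM the taste lists together were lowest in pig 5, at 0.104% of the counts against 0.116% in pig 1. That order leans on GLUL, the most abundant member of these lists, at 271, 417, 394, 247 and 141 CPM. After TMM the type I and type II sums were lowest in pig 5 and the progenitor sum in pig 1. SHH, CYP26A1, GNAT3, TAS1R2 and OTOP1 had no count in pig 1. Of the 16 basal genes, 5 were lowest in pig 1 after TMM, against 19.8% of all genes. By CPM TP63, KRT15 and COL17A1 were lowest in pig 1 and KRT5 in pig 5. TP63 stood at 68.9 CPM in pig 1 against 81.7 to 107 CPM in the other 4. SOX2 stood at 62.0 CPM in pig 1 against 51.2 to 68.5 CPM. Pig 1 combined the highest mucous, fibroblast and upper-layer keratin levels with the lowest levels of TRPM5, SHH, the 4 kallikreins and KRT24. Pig 2 combined the lowest serous and muscle levels with the highest neuronal, Schwann cell, interferon and B cell sums. Pig 3 combined the highest muscle, mitochondrial and TRPM5 levels with the lowest sum of secretory machinery. Pig 4 was second in OBP2B and lowest in MUC5B, and pig 5 was highest in serous products and lowest in fibroblast genes. Shares of 1 library add to a whole, so a high gland share lowers the others. By CPM and after TMM alike, the sums of the serous, mucous, fast fibre, slow fibre, sarcomere, fibroblast, Schwann and neuronal lists had the same highest and lowest pigs. The part of the depth and place of each dissection in these differences was not tested.

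**Figure D5:**
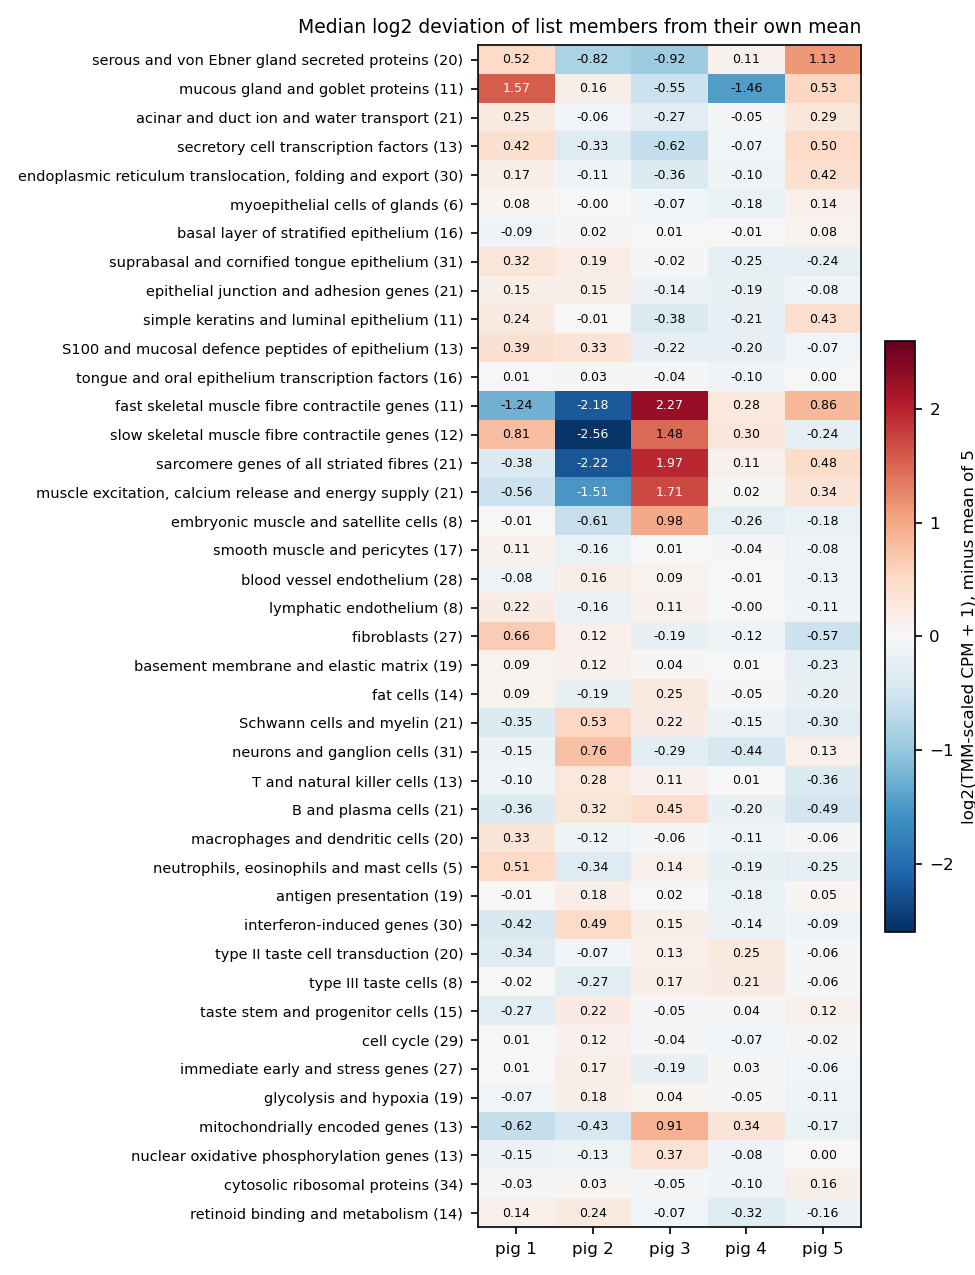
Median log2 deviation of the members of each gene list from their own mean over 5 pigs, from TMM-scaled CPM with 1 added, by pig; the number of members is in brackets. Red is above and blue below the mean: mucous genes reach 1.57 in pig 1 and -1.46 in pig 4, fast fibre genes 2.27 in pig 3 and -2.18 in pig 2, and neuronal genes 0.76 in pig 2.

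Across all genes, the first principal component of log2 CPM carried 41.7% of the variance and the second 30.7%. The genes with the strongest loadings on the first were LOC100525745, CXCL13, LOC100737113, LOC106510150 and PDYN at 1 end and LOC100739218, PIP, LOC100511607, LOC110260739 and BPIFA1 at the other. Its scores set pig 2 (-33.7) against pig 5 (39.5). After TMM the first component was another axis, with 36.3% of the variance and pig 1 (-34.0) against pig 3 (36.0). Among its 10 strongest genes at each end were CLCA1, LYZ, PIGR, BPIFB2 and TFF2 on one side and TNNC2, MYH1, KRT3, RPTN, KLK7, CYP26A1 and LOC100737113 on the other. PDYN, the precursor of dynorphin, had 0.529, 15.3, 9.22, 3.29 and 1.60 CPM. Among genes of at least 100 CPM the steadiest by CPM was TAX1BP1, at 126, 132, 128, 127 and 129.9 CPM, followed by MORF4L2, MATR3 and SQSTM1.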

How the data were processed

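Poly-A RNA of 5 pieces of foliate papilla tissue, 1 from each of 5 numbered pigs, was sequenced as read pairs. Per the submitters' processing notes, reads were checked with FastQC 0.11.9 and MultiQC 1.14 and aligned with STAR 2.7.10b. Per the file headers, the authors counted pairs per gene with featureCounts 2.0.3, ignoring strand and counting a pair for each gene it overlapped, and the deposited values are raw counts, with no normalization. A genome build and whether the libraries kept strand are not given in the sources used here. Exons of 5287 genes overlap another gene, and pairs that map to several places were not counted, so overlapping, antisense and near-identical genes are uncertain. The overlapping genes named above include ADCY8, BHLHA15, ISG15, LTB, MS4A2, MZB1, OAS1, STAT2 and TNNC2, and CHIA, named below, is another. The symbols of 26875 of the 27376 genes matched a RefSeq table of assembly Sscrofa11.1, used only for names and neighbours.

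From the counts, CPM of the library total and CPM per kb of the deposited length were computed with Python 3.11.15, numpy 2.4.6 and pandas 2.3.3. TMM factors came from edgeR 4.0.16 and size factors from DESeq2 1.42.0 in R 4.3.3. Genes needed a mean of at least 1 CPM, and log2 values had 1 CPM added. At 17036091 to 20714619 counts per library, the 95% interval of each list that held at least 0.01% of the counts was at most 3.40% of its value to either side, for counting error only. Chi-square comparison of every pair of libraries found none that agreed within sampling noise. Counts of members highest or lowest in a pig use TMM-scaled CPM, while the highest or lowest pig of a single gene is that of the printed CPM unless TMM is named. The scripts were tested on simulated data. The alternatives were 3 other scalings, other filters, pseudocounts and folds, levels per kb, leaving out genes with overlapping exons, and leaving out each pig.

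The gene lists and members were chosen with earlier results of these data known. Named genes were the 6 markers of the tissue (OBP2B, BPIFA2, KRT5, MYH2, SOX10 and TRPM5) and INS, the 20 highest by CPM and by CPM per kb, in each list the 4 highest per kb and the widest and narrowest, all members of lists of up to 16 genes, the 10 widest genes at 10 CPM or more, the 10 narrowest at 100 CPM or more, and the 5 strongest loadings at each end of the first principal component. All other genes named were chosen after their values were seen: ADCY8, ADIPOQ, AMY2B, ANO1, ARTN, BPIFB2, CA6, CD79B, CFTR, CHIA, CPA3, CRELD2, CRNN, DBH, DMKN, DSC1, EGR1, EGR2, FOS, GNAT3, GNB3, HSPA5, KLK6, KLK7, KLK8, KRT10, KRT24, KRT3, KRT78, LOC106505430, LOC110260466, LOR, LPO, LTB, LYZ, MKI67, MX1, NEFM, NOS1, NOTUM, OAS1, OAS2, PAX5, PIGR, PKD2L1, PLCB2, PLIN1, POSTN, POU2F3, PPL, PRPH, RFX6, S100B, SCGB1D1, SLC18A3, SLPI, STATH, TAS1R1, TOP2A, TPH1, TRA2B, TTN and VWF.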

Additional observations from a re-analysis of the deposited data

Results flagged for a closer look

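In 7 of 46 list sums and 31 of 194 named genes, 1 pig lay far from the other 4: the gap to the nearest pig, divided by the whole range over the 5 pigs by CPM, was above 0.71. GLUL was not examined. Chance gives such a gap in about 1 of 20 groups of normally distributed values, which CPM need not be. The share of genes found here cannot be set against that rate. Many of them were named after their values were seen, and genes of 1 tissue move together. The distant pig was the highest in all of them. CPM without logs favours that direction, since a single low pig below spread values gives a small ratio. LOC110256379, lowest in pig 4, gave 0.556 and KRT24, lowest in pig 1, gave 0.375. The values that follow are the ratios above the limit.

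Pig 3 was the distant animal for muscle, with 0.731 for the fast fibre list, 0.765 for the sarcomere list, 0.796 for the list of excitation and energy supply and 0.729 for the list of embryonic muscle and satellite cells. Its muscle genes were ACTA1 with 0.759, CKM with 0.769, DES with 0.722, MYF6 with 0.787, MYH4 with 0.716, TNNC2 with 0.827 and TNNT3 with 0.824. The myoepithelial list reached 0.887, and its member TPM2 reached 0.811. The mitochondrial protein gene NDUFA4 reached 0.806. CPA3 gave 1 because it had a single count.

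Pig 2 was the distant animal for the neuronal list with 0.785, and for its members DBH with 0.799, NOS1 with 0.84, PRPH with 0.773, SLC18A3 with 0.742 and UCHL1 with 0.767. It was also distant in the endothelial genes SELE with 0.878 and VWF with 0.797, in the immediate early genes EGR1 with 0.843 and FOS with 0.742, in LGR5 with 0.722 and in MUC4 with 0.814.

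Pig 1 was distant for the list of neutrophils, eosinophils and mast cells with 0.776, and for the gland genes ANO1 with 0.777, FCGBP with 0.727, LYZ with 0.959, SCGB1D1 with 0.971 and STATH with 0.816. Pig 4 was distant in the epidermal keratins KRT1 with 0.827 and KRT10 with 0.798. Pig 5 was distant in CHIA with 0.776, LOC100739218 with 0.92 and PIP with 0.786.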

How the results depend on the processing

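The 10 most abundant genes held a mean of 24.2% of the counts, 21.4% to 26.4% when each pig was left out, and 42.4% of all CPM per kb when ranked per kb. Genes with a range of at least 4-fold numbered 1078, 799 to 933 with 1 pig left out (4 libraries have fewer extremes), 316 at a mean of at least 10 CPM, 3675 with only 10 counts required, and 4663 at 2-fold. The first principal component held 41.7% of the variance, 36.3% after TMM, 36.4% with size factors, 35.9% with a total that leaves out the 10 most abundant genes, and 44.7% to 53.5% with 1 pig left out. The 49 genes low in pig 1 became 17 at a mean of at least 10 CPM, and the 70 low in pig 2 became 46 by CPM and 31 at that mean. List sums spanning at least 2-fold numbered 17, and 13 to 17 with 1 pig left out. Of 46 lists, 32 had the same highest pig after TMM as by CPM, 31 with size factors, 29 with the total without the 10 genes, 39 per kb and 43 without members that overlap other exons, and the range stayed within 1.5-fold for 44 or more. No paired analysis was possible because there is 1 group. Depth limits genes near 3 counts, such as bitter receptors.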

Other observations

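Genes at work in all cell types gave further patterns. The 27 immediate early genes, which cells induce quickly on stimulation, took 0.339%, 0.454%, 0.360%, 0.359% and 0.287% of the counts, and after TMM 13 were highest in pig 2, against 20.8% of all genes, and 13 lowest in pig 3, against 20.2%. Their sum spanned 1.19-fold after TMM and 1.07-fold without pig 2. FOS had 27.9, 61.5, 16.8, 16.2 and 24.3 CPM and EGR1 had 20.7, 65.2, 24.3, 25.8 and 27.7 CPM. Of 29 cell cycle genes, MKI67, a marker of dividing cells, had 40.8, 51.7, 36.8, 31.3 and 32.3 CPM and TOP2A had 19.9, 22.1, 19.7, 24.5 and 23.4 CPM, and the list spanned 1.16-fold after TMM. Of 34 ribosomal protein genes, 29 were highest in pig 5 after TMM, against 23.4% of all genes. By CPM 32 of them were highest in pig 2, against 44.6% of all genes, and 0 in pig 5, so the highest pig depended on the scaling. The sum of that list spanned only 1.21-fold after TMM. RFX6, a factor of endocrine cells of gut and pancreas, had 44.0, 31.7, 47.2, 49.7 and 60.2 CPM, while INS, insulin, had no count in the 5 libraries.

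Some genes stood apart in a single animal. LOC110256379 (chromosome 13, 123802640 to 123837673) had 21.7, 14.6, 13, 0.0587 and 23.3 CPM, with pig 4 the lowest, and its neighbour TRA2B on one side had 63.0, 83.8, 71.0, 74.7 and 64.4 CPM and ETV5 on the other 13.2, 14.7, 12.0, 12.7 and 13.1 CPM. LOC100739218, between the protease inhibitor genes SPINK5 and SPINK14, had 52.0, 52.9, 24.1, 59.5 and 467 CPM, with pig 5 above the other 4. LOC110260466, in the cluster of cornified envelope genes on chromosome 4, had 968, 1366, 838, 99.0 and 483 CPM, with pig 4 the lowest. MUC4, a membrane mucin, had 25.7, 128, 14.3, 6.10 and 28.7 CPM, with pig 2 the highest. CHIA, acidic chitinase, had 159.8, 112, 132, 57.3 and 515 CPM, with pig 5 the highest. These values are from 1 library per animal and carry no replicate within an animal.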
